A study of Homo sapiens with 9 samples.

Results

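The library labelled OE19 is 1 of 9 RNA-seq libraries of human oesophageal adenocarcinoma cell lines, and it was compared, over all genes, with the other 8. It was taken as the column that carries the name OE19 in the deposited count table. Beside OE19 the lines are JH_EsoAd1, OE33, OACP4_C, ESO-26, FLO-1, OAC_5.1_C, SK-GT-4 and ESO-51, all grown untreated to 80% confluency. Each line has 1 column of counts, although the series' design text speaks of 3 technical replicates of each line, so no difference given here has a replicate check and no test between lines was possible. Each established line stands for 1 tumour grown in culture, without the stroma of the tissue it came from.

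OE19 is an adenocarcinoma line of the gastric cardia and gastro-oesophageal junction. It is widely used as a model with an amplified ERBB2 gene, which encodes the receptor tyrosine kinase HER2. The data go against that label. ERBB2 had 185 CPM in the library labelled OE19, against 10.4 to 18325 CPM in the other 8 libraries with a median of 355. The level in the library labelled OE19 was thus inside the range of the others and below their median, and the highest level was in the library labelled SK-GT-4. The name OE19 is therefore used below only as the label the library carries, every direction is that of the library so labelled, and no library was reassigned.

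Adenocarcinoma of the oesophagus arises in columnar mucosa that has replaced the squamous lining, and such cells can carry gastric and intestinal programmes side by side. Transcription factors of the HNF4 and CDX families are known as drivers of intestinal and hepatic genes in the gut and liver. Enterocyte genes of the brush border, goblet cell mucins and liver-type metabolic enzymes are among their known targets.

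The library labelled OE19 held 29959895 counts, within the 16801179 to 69881539 of the other 8. Levels are CPM, the counts of a gene scaled to a common library total, with library sizes adjusted by TMM, a trimmed mean of gene-wise ratios. Differences are on the log2(CPM + 1) scale, which understates the change of low genes. Medians of the other 8 libraries are taken on that scale. A count of 0 in this library allows up to 0.107 CPM (3 counts), and intervals and such floors cover counting error only. It had the fewest genes at 1 CPM or more, 13687, against 13836 to 15236 in the others. Mitochondrial genes took 1.70% of its counts, against 1.48% to 24.7% in the others, the highest being JH_EsoAd1.

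Markers of epithelium were present in the library labelled OE19. The 6 epithelial markers summed to 7426 CPM, against 163 to 15412 CPM in the other 8 libraries. KRT8, a keratin of simple epithelia, had 3342 CPM in the library labelled OE19, against 13.4 to 7808 CPM in the other 8 libraries with a median of 1382. EPCAM, an epithelial adhesion molecule, had 355 CPM in the library labelled OE19, against 0.189 to 1335 CPM in the other 8 libraries with a median of 401. The low ends of these ranges were ESO-26 for KRT8 and OE33 for EPCAM. The 6 columnar markers summed to 4083 CPM in this library, against 4.61 to 2578 CPM in the others, so its sum was above each of theirs. Most of that sum came from LGALS4 (1655 CPM) and MUC5AC (1542 CPM). CDX2, HNF4A, CDH17 and TFF3 were each higher in SK-GT-4, in ESO-51 or in both. The 4 squamous markers summed to 4.81 CPM in this library, against 0.634 to 994 CPM in the others with a median of 7.80. Most of that sum came from KRT13, at 4.13 CPM in this library, against 0 to 177 CPM in the others. TP63 was at 0.321 CPM, KRT4 at 0.356 CPM and KRT5 at 0 counts in this library. In JH_EsoAd1, the highest of the others, they were at 292, 523 and 2.83 CPM. Of the markers of other cell types, CD3D for blood cells, CDH5 and KDR for endothelium, and COL1A2, DCN and LUM for fibroblasts were at 0 counts in it. The summed level of blood cell markers was 3.06 CPM in this library, against 0.689 to 25.5 CPM in the others. That of endothelial markers was 0.214 CPM in this library, against 0.0577 to 30.3 CPM in the others. That of fibroblast markers was 1.75 CPM in this library, against 2.78 to 87.4 CPM in the others, so it was below each of them.

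A gene was called higher if the library labelled OE19 had 5 CPM or more and exceeded each other library by 2 or more on the log2 scale. It was called lower if each other library had 5 CPM or more and exceeded this one by 2 or more. The gap is the difference from the nearest of the other 8. Of 19719 genes at 1 CPM or more in some library, 71 (0.36%) were higher and 59 (0.299%) were lower. Protein-coding genes made up 68 of the higher and all 59 of the lower genes. The gap was at least 4 for 19 higher and 8 lower genes. For 20 of the 71 higher genes no other library reached 1 CPM, and 9 of the 59 lower genes had 0 counts. Just inside and outside the threshold lay SH3BGRL3 (2.01) and TES (1.98) on the higher side. Just inside it on the lower side lay TCF19 (-2.01). In bulk RNA, a change in the share of cells that express a gene and a change of its level per cell cannot be told apart.

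**Figure D1:**
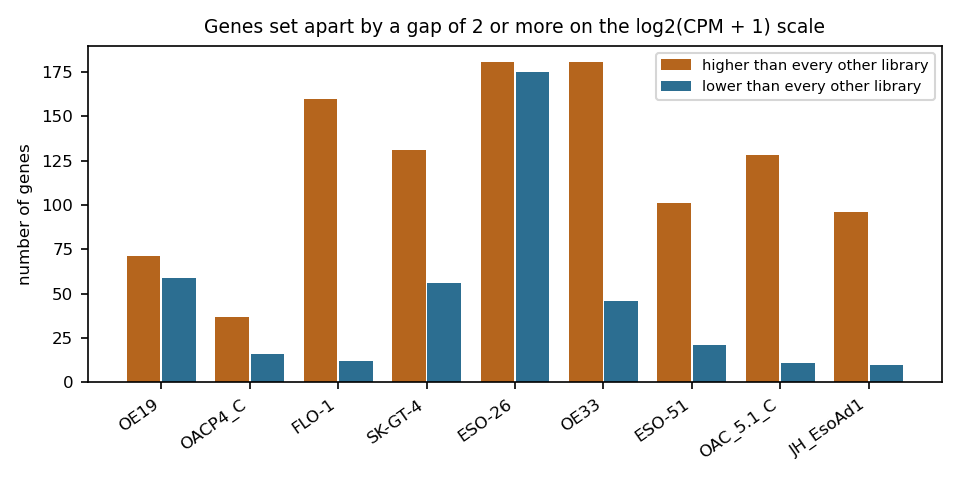
Bars give, for each of the 9 libraries, the number of genes called higher or lower by the same gap rule against its own 8 others. The library labelled OE19 had 71 higher genes, against 37 to 181 elsewhere, and 59 lower genes, against 10 to 175.

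By the same rule each of the other libraries had 37 to 181 higher genes and 10 to 175 lower genes. The 71 higher genes of the library labelled OE19 ranked 8 of 9, above OACP4_C with 37. Its 59 lower genes ranked 2 of 9, below ESO-26 with 175. Relative to the median of the other 8, 676 of 17129 genes (3.95%) were over 4-fold above and 722 (4.22%) over 4-fold below. Over 2-fold above lay 12.9% and over 2-fold below lay 13.4%. The median difference over these genes was -0.03.

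Genes of alcohol metabolism, the intestinal brush border and mucus had some of the widest gaps, as did PCK1 of gluconeogenesis. FBP1 and PPARGC1A, also of gluconeogenesis, were near 0 in this library, as given below. ADH1C, a class I alcohol dehydrogenase, had 10498 counts and 374 CPM in the library labelled OE19, against 0 to 0.912 CPM in the other 8 libraries with a median of 0.0408 (gap 7.62). PCK1, the cytosolic enzyme that commits carbon to gluconeogenesis, had 398 CPM in the library labelled OE19, against 0 to 2.51 CPM in the other 8 libraries with a median of 0.0789 (gap 6.83). MUC17, a membrane mucin of the enterocyte surface, had 607 CPM in the library labelled OE19, against 0 to 9.61 CPM in the other 8 libraries with a median of 0.134 (gap 5.84). None of these 3 genes exceeded 10 CPM in any other library. CDHR2, a protocadherin that links neighbouring microvilli, had 568 CPM in the library labelled OE19, against 0.0412 to 14 CPM in the other 8 libraries with a median of 0.942. TM4SF20, a membrane protein, had 223 CPM in this library, against 0.0577 to 4.07 CPM in the others. CIDEC, which fuses lipid droplets, had 228 CPM in this library, against 0.0933 to 3.31 CPM in the others. APOA4, a lipoprotein of fat-absorbing enterocytes, had 771 counts, or 27.5 CPM in this library, against 0 to 0.0222 CPM in the others. Every other library was at or close to 0 for APOA4. RSPO2, a secreted amplifier of Wnt signalling, had 37.7 CPM in this library, against 0 to 0.173 CPM in the others.

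**Figure D2:**
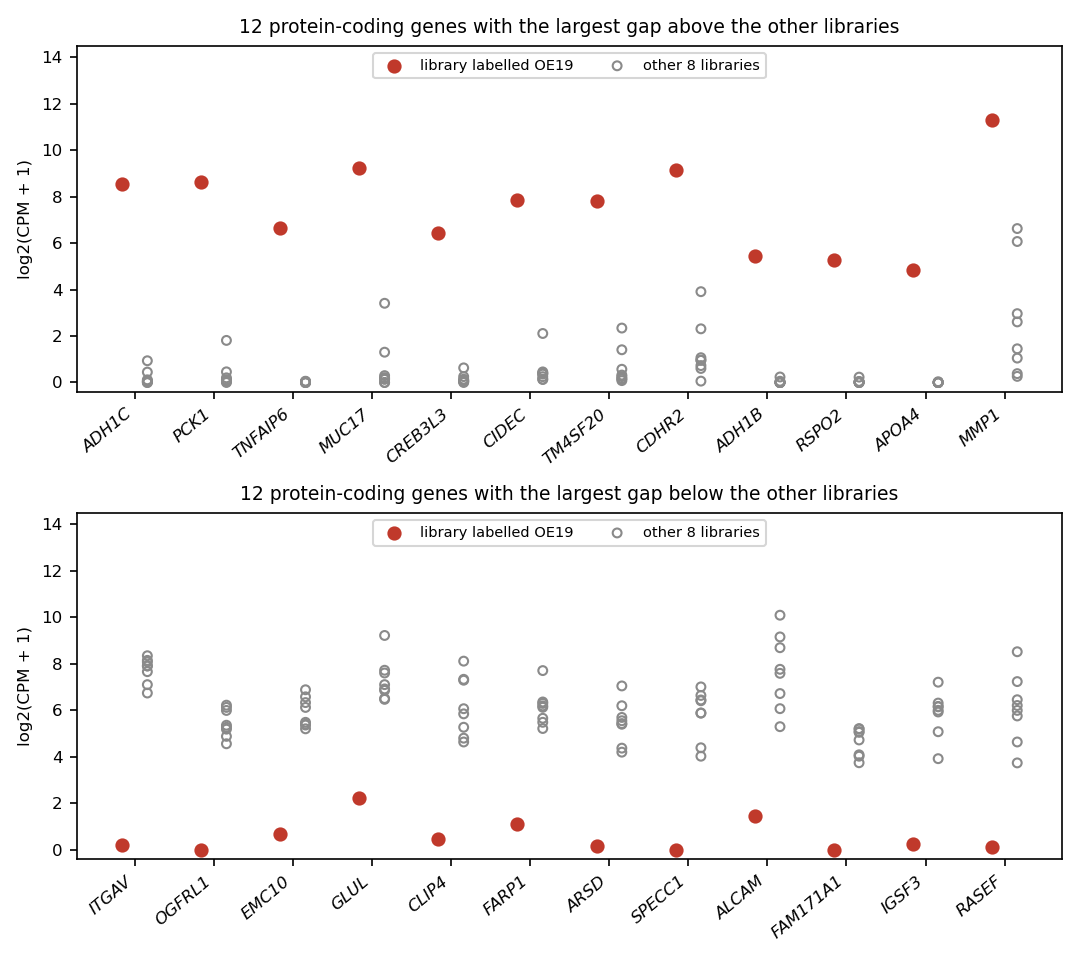
Each column is 1 gene, filled points the library labelled OE19 and open points the other 8 libraries, in log2(CPM + 1). The upper panel holds the 12 protein-coding genes with the largest gap above the other libraries (gap 4.68 to 7.62), the lower panel the 12 with the largest gap below (gap -3.63 to -6.55). The groups do not overlap, which the choice of genes fixes.

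The alcohol dehydrogenase genes on chromosome 4 stood out as a block. ADH6, ADH1A, ADH1B and ADH1C follow each other in gene order and were all called higher. ADH1B had 42.3 CPM in this library, against 0 to 0.178 CPM in the others. ADH1A had 5.67 CPM in this library, against 0 to 0.107 CPM in the others. ADH6 had 42.9 CPM in this library, against 0.0577 to 9.14 CPM in the others, with ESO-51 as the next library. The flanking members did not share this. ADH5, the housekeeping class III enzyme, had 104 CPM in this library, against 25.6 to 155 CPM in the others. ADH4 had 0.428 CPM in this library, against 0 to 0.534 CPM in the others. ADH7 had 0 counts in this library, against 0 to 0.0496 CPM in the others. ADH1A, ADH1B and ADH1C are closely related paralogs, so how reads were shared between them is uncertain. In the full list of alcohol and retinoid dehydrogenases, 18 of 20 members reached 1 CPM in some library. Of these, 12 were over 2-fold above and 1 over 2-fold below the median of the others, with a median difference of 2.79. ALDH1A1, which makes retinoic acid from retinal, had 881 CPM in the library labelled OE19, against 0.311 to 3803 CPM in the other 8 libraries with a median of 2.69. The library labelled ESO-51 was higher still. For this and every other list, a member that reached 1 CPM in the library labelled OE19 alone was bound to stand above the others, so the counts describe the members that passed and not the whole list. The counts of each list are to be read beside the shares over all genes, 12.9% over 2-fold above and 13.4% over 2-fold below. A count near these shares says little about a list.

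The promoters of the 3 class I genes are shown because the genes were higher together. Each is the RefSeq window of 300 bases, from 250 before to 50 after the gene's start, in the build GRCh38.p14, on the minus strand of chromosome 4, with every CG dinucleotide in capitals. They lie at chr4:99290936-99291235 (ADH1A), chr4:99321352-99321651 (ADH1B) and chr4:99352697-99352996 (ADH1C).
ADH1A: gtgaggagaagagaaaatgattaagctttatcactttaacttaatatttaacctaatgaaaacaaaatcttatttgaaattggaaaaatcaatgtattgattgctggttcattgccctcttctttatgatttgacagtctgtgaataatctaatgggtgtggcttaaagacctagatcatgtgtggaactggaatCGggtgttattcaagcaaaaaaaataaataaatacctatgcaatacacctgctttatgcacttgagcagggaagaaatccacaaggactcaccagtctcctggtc
ADH1B: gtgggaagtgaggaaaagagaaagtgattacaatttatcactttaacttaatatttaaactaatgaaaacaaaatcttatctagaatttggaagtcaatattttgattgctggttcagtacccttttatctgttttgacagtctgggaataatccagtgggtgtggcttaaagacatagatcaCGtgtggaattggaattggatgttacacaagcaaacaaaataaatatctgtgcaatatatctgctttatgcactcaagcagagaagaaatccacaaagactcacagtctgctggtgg
ADH1C: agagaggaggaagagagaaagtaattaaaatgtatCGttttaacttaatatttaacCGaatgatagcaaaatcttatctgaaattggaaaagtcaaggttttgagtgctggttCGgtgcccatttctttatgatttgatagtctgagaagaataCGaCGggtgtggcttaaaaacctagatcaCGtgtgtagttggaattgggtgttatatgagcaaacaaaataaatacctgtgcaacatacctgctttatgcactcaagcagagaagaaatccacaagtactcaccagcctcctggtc
In global alignments the windows were 82.85% identical (ADH1A and ADH1B), 82.89% (ADH1A and ADH1C) and 82.3% (ADH1B and ADH1C). They hold 1, 1 and 6 CG dinucleotides, and their GC content is 35%, 35% and 38%.

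A low content of CG dinucleotides was common among the higher genes. Of 64 higher protein-coding genes off chromosome 8, which was not used here, 54 (84.4%) had a window. The ratio of observed to expected CG dinucleotides was under 0.6 in 38 of these 54 (70.4%), with a median of 0.331. Among all 8174 matched genes at 5 CPM or more in this library, 13.3% were under 0.6, with a median of 0.858. Over all 27305 windows of the promoter table, whether or not the gene was expressed, 51.0% were under 0.6, with a median of 0.58, so the share among the higher genes lay closer to that of all windows. Among the lower genes the share was close to its background. Of 56 off chromosome 8, 52 (92.9%) had a window and 4 of these (7.69%) were under 0.6, against 9.22% of the 6498 matched genes at 5 CPM or more in each of the other 8 libraries. These shares are descriptions without a test.

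**Figure D3:**
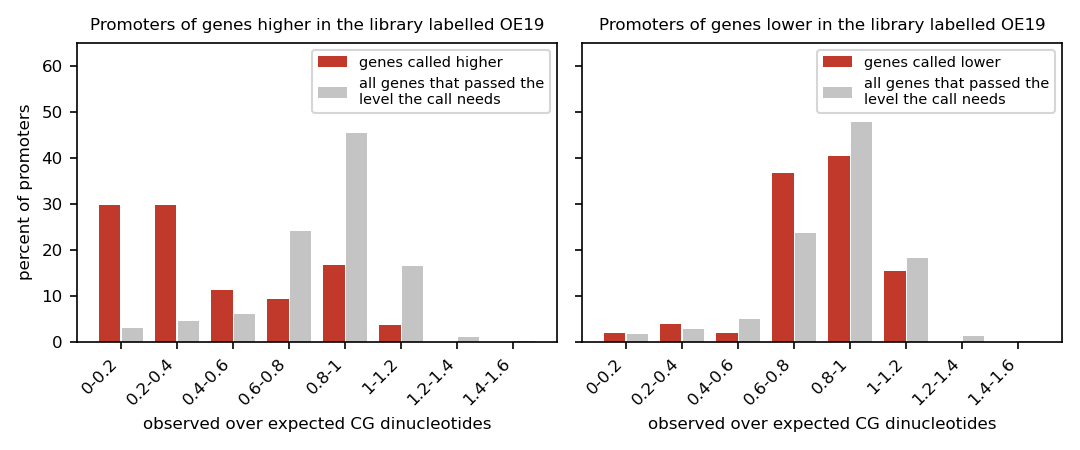
Bars give the percent of promoter windows in each bin of the observed over expected ratio of CG dinucleotides, for called genes and for all matched genes at the level the call needs (5 CPM in the library labelled OE19 on the left, 5 CPM in each other library on the right). Of the higher genes 70.4% lie under 0.6, against 13.3% of the comparison genes and 51.0% of all windows in the promoter table (not drawn), and of the lower genes 7.69% against 9.22%.

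2 more windows belong to genes described below. CREB3L3 was among the higher genes and its window (chr19:4153381-4153680, plus strand, GRCh38.p14) holds 6 CG dinucleotides, in capitals. ITGAV had the widest gap among the lower genes and its window (chr2:186589806-186590105, plus strand) holds 23.
CREB3L3: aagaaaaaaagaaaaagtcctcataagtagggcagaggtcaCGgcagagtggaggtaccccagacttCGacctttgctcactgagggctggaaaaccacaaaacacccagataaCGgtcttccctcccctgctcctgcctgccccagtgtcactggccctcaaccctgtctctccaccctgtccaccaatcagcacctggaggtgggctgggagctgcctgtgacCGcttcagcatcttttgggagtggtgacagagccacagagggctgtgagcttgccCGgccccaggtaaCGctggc
ITGAV: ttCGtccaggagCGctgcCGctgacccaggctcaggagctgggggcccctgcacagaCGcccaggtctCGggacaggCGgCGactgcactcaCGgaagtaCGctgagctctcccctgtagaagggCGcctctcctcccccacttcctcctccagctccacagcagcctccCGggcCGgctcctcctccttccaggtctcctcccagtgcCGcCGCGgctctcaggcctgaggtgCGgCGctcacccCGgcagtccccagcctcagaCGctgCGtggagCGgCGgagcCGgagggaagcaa
The ratio of observed to expected CG dinucleotides was 0.239 for CREB3L3 and 0.627 for ITGAV, and their GC content was 58% and 70.7%. The ratio of ITGAV was below the median of the lower genes, 0.836, so the pair does not stand for the 2 groups.

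Several intestinal and hepatic transcription factors were above the median of the others, and of the list only CREB3L3 was called. CREB3L3 encodes a membrane-bound factor that switches on lipid and gluconeogenic genes in liver and intestine. It had 2411 counts and 85.9 CPM in the library labelled OE19, against 0 to 0.545 CPM in the other 8 libraries with a median of 0.0592. HNF4A had 124 CPM in the library labelled OE19, against 0 to 167 CPM in the other 8 libraries with a median of 4.25. ESO-51 and SK-GT-4 were higher, so HNF4A did not set this library apart. CDX2, the intestinal homeobox factor, had 78.4 CPM in this library, against 0.446 to 99.9 CPM in the others. HNF4G had 21.7 CPM in this library, against 0.0754 to 113 CPM in the others. KLF5, a factor of proliferating gut epithelium, had 459 CPM in this library, against 2.25 to 454 CPM in the others. GATA4 ran the other way with 1 count, or 0.0356 CPM in this library, against 0.446 to 23.2 CPM in the others. Of 19 members that passed, 9 were over 2-fold above and 4 over 2-fold below, with a median difference of 0.96.

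Enterocyte genes were higher than in most other libraries, although SI and VIL1 were at or near 0. Of 24 members that passed, out of 28 in the table, 16 were over 2-fold above and 0 over 2-fold below the median, and 3 met the gap rule (0.36% of all genes). The median difference was 2.05 (1.10 with no minimum CPM, 0.73 with a pseudocount of 5 and 0.75 on deposited FPKM), against -0.03 over all genes. Genes of the microvillar adhesion complex were among them. Beside CDHR2, its partner CDHR5 had 63.3 CPM in this library, against 0.377 to 42.5 CPM in the others. The scaffold USH1C had 160.3 CPM in this library, against 0.0412 to 199 CPM in the others. The motor MYO7B had 145 CPM in this library, against 0 to 119.9 CPM in the others. ESO-51 or SK-GT-4 was the next library for each, and ESO-51 exceeded this one for USH1C. DPP4, a brush border peptidase, had 383 CPM in this library, against 0.0577 to 197 CPM in the others. LGALS4, an intestinal lectin, had 1655 CPM in this library, against 0.231 to 1267 CPM in the others. VIL1, which encodes the actin bundler villin, had 0.463 CPM in the library labelled OE19, against 0.115 to 341 CPM in the other 8 libraries with a median of 0.538. ANPEP, another brush border peptidase, was at 0.392 CPM in this library, against a median of 0.388 in the others. SI, which encodes sucrase-isomaltase, had 0 counts in this library. In deposited FPKM the others had 0 to 0.151 for SI, with a median of 0.

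Metabolic genes of the liver type were split. PCK1 was far above the others, and PPARA, a receptor that activates fatty acid oxidation, had 207 CPM in this library, against 17.8 to 90.1 CPM in the others. FBP1, a later enzyme of gluconeogenesis, had 0 counts in this library, against 0.0577 to 29.1 CPM in the others. Of 10 members of the hepatic-type list that passed, out of 16, 4 were over 2-fold above and 2 below (median 0.23). PPARGC1A, a coactivator of the same pathway, had 1 count, or 0.0356 CPM in this library, against 0.0377 to 52.6 CPM in the others. Among genes of stored fat, LIPE, the hormone-sensitive lipase, had 103 CPM in this library, against 1.66 to 20.4 CPM in the others. The lipid droplet coat gene PLIN4 had 43.3 CPM in this library, against 0.0667 to 7.84 CPM in the others. GPD1, which supplies glycerol phosphate, had 28.2 CPM in this library, against 0.151 to 3.54 CPM in the others. All 3 met the gap rule. PRODH2, which degrades hydroxyproline, and AGXT, which detoxifies glyoxylate, are enzymes of liver and kidney. PRODH2 had 19.6 CPM in this library, against 0 to 0.151 CPM in the others. AGXT had 8.55 CPM in this library, against 0.0322 to 1.16 CPM in the others, and both were called higher.

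Mucus genes were among the largest differences from the median. MUC5AC, the surface mucin of the stomach, had 1542 CPM in the library labelled OE19, against 0.0754 to 278 CPM in the other 8 libraries with a median of 0.259. The difference from the median was 10.26, and SK-GT-4 was next. MUC5B, its neighbour on chromosome 11, had 1901 CPM in the library labelled OE19, against 0.40 to 1914 CPM in the other 8 libraries with a median of 1.21, with SK-GT-4 at the same level. MUC2, the goblet cell mucin between them and MUC6, was at 5.2 CPM in this library, against 0 to 3.55 CPM in the others. MUC6, the gland mucin, had 1 count in this library, against up to 74.8 CPM in FLO-1. TFF2, a trefoil peptide of gastric mucous cells, had 128 CPM in this library, against 0 to 15.6 CPM in the others. TFF1 had 12.2 CPM in this library, against 0 to 341 CPM in the others with a median of 0.208. TFF3 had 3.67 CPM in this library, against 0 to 89.8 CPM in the others with a median of 0.052. Both were thus above the median, and SK-GT-4 was the highest for both. GCNT3, which branches mucin glycans, had 229.8 CPM in this library, against 0 to 55.2 CPM in the others. Of 16 secreted mucin, trefoil and goblet genes that passed, 8 were over 2-fold above and 4 over 2-fold below (median 1.12, but 0.15 with no minimum CPM). The lower ones included BCAS1 (0.107 CPM in this library, against 2.13 to 159 CPM in the others) and GALNT12, which starts mucin-type glycosylation (0.927 CPM in this library, against 1.79 to 164 CPM in the others).

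Membrane mucins diverged within the family. MUC13 had 336 CPM in this library, against 0.0377 to 247 CPM in the others, and MUC17 was described above. MUC12 and MUC3A adjoin MUC17 on chromosome 7. MUC12 had 3.78 CPM in this library, against 0.0577 to 5.19 CPM in the others. MUC3A had 5.81 CPM in this library, against 0 to 4.69 CPM in the others. MUC16 had 3 counts, or 0.107 CPM in this library, against 0.0222 to 458 CPM in the others with a median of 11.7. OAC_5.1_C was the highest, and SK-GT-4 and ESO-51 were lower than this library. MUC4 had 2 counts in this library, against up to 387 CPM in OACP4_C. Of 8 membrane mucins that passed, 4 were over 2-fold above and 3 below (median 1.10, but 0.14 with no minimum CPM). The list of gastric epithelial genes, which also holds TFF1 and TFF2, was mixed. Of 16 that passed, 5 were over 2-fold above and 3 over 2-fold below (median -0.01, mean 1.27). SULT1C2, a sulfotransferase, had 36.7 CPM in this library, against 0 to 1.85 CPM in the others. ANXA10 had 149 CPM in this library, against 0 to 334 CPM in the others. CLDN18 and PGC, which encodes pepsinogen C, had 0 counts in this library. Both were also low in most others. In deposited FPKM the others had 0 to 1.41 for CLDN18 (median 0.0439) and 0 to 7.38 for PGC (median 0.0161).

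Secreted proteases and cytokines were a further part of the higher genes. MMP1, the interstitial collagenase, had 70750 counts and 2521 CPM in the library labelled OE19, against 0.20 to 97.6 CPM in the other 8 libraries with a median of 3.08. MMP10, its neighbour on chromosome 11, had 82.7 CPM in this library, against 0 to 5.15 CPM in the others. MMP3 beside them had 1.46 CPM in this library, against 0 to 0.297 CPM in the others. MMP7 had 1.39 CPM in this library, against 0.0577 to 405 CPM in the others. PLAT, the tissue plasminogen activator, had 1215 CPM in the library labelled OE19, against 0.156 to 233 CPM in the other 8 libraries with a median of 3.34. SERPINE2, a serpin that inhibits it and thrombin, had 887 CPM in this library, against 1.93 to 78.4 CPM in the others. PLAU, the urokinase gene, was below the median with 8.98 CPM in this library, against 0.257 to 998 CPM in the others. Across 21 matrix proteases and inhibitors, 6 were over 2-fold above and 1 below (median 0.25). SERPINB3 and SERPINB4 are near-identical neighbours on chromosome 18, so the split of reads between them is uncertain. SERPINB3 had 21 CPM in this library, against 0 to 0.16 CPM in the others. SERPINB4 had 19.2 CPM in this library, against 0 to 0.0823 CPM in the others. Both encode serpins of squamous and airway epithelia. IL1B, a cytokine of the fever response, had 139 CPM in this library, against 0 to 4.87 CPM in the others. IL37, beside it, had 5.31 CPM in this library, against 0 to 0.40 CPM in the others. TNFAIP6, a hyaluronan-binding protein induced by such cytokines, had 99.6 CPM in this library, against 0 to 0.0377 CPM in the others. The wider group of NF-kB and inflammatory genes was mixed. Of 29, 11 were over 2-fold above and 5 below (median 0.08). BIRC3, an inhibitor of apoptosis, had 6.52 CPM in this library, against 0.807 to 1814 CPM in the others.

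Transporters and surface proteins were also called higher. ABCG5 and ABCG8 form 1 sterol pump from 2 half-transporters and lie head to head on chromosome 2. ABCG5 had 6.81 CPM in this library, against 0 to 0.446 CPM in the others. ABCG8 had 8.84 CPM in this library, against 0 to 0.293 CPM in the others. Their RefSeq promoter windows share 231 bases on opposite strands. The ABCG8 window (chr2:43838721-43839020, plus strand, GRCh38.p14) is shown with its 8 CG dinucleotides in capitals.
ABCG8: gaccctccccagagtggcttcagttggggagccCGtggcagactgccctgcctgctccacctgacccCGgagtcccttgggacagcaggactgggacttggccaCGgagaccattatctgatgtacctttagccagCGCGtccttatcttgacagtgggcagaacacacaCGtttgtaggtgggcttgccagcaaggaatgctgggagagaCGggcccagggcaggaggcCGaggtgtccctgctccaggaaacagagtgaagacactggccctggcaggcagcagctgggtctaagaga
Of 16 ABC transporters that passed, 10 were over 2-fold above and 1 below (median 1.47). CD55, which restrains complement, had 1765 CPM in the library labelled OE19, against 21.4 to 213 CPM in the other 8 libraries with a median of 78.6. CA12, a carbonic anhydrase of the cell surface, had 571 CPM in this library, against 0.193 to 112 CPM in the others. SLC4A4, a bicarbonate transporter, had 86.1 CPM in this library, against 0 to 12.4 CPM in the others. CEACAM1, an adhesion molecule, had 256 CPM in this library, against 0.49 to 47.6 CPM in the others. SSTR5, a somatostatin receptor, had 32.3 CPM in this library, against 0 to 1.99 CPM in the others. Its antisense gene SSTR5-AS1 was higher too, and reads of the pair cannot be told apart because the strand setting is not given. UGT1A10, a glucuronidating enzyme, had 54.7 CPM in this library, against 0 to 9.12 CPM in the others. It shares exons with the rest of the UGT1A family, so its level is uncertain.

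On the lower side the widest gap was in an integrin gene. ITGAV encodes the alpha V chain that pairs with several beta chains to bind fibronectin and vitronectin. It had 4 counts and 0.143 CPM in the library labelled OE19, against 106 to 324 CPM in the other 8 libraries with a median of 238. The other 8 libraries all exceeded 100 CPM. By library the CPM values were 238 in OACP4_C, 239 in FLO-1, 106 in SK-GT-4, 201 in ESO-26, 324 in OE33, 136 in ESO-51, 282 in OAC_5.1_C, 269 in JH_EsoAd1. Its partners differed from one another. ITGB6, whose only known partner is the alpha V chain, had 0.998 CPM in this library, against 0.113 to 131 CPM in the others. ITGB5 had 157 CPM in this library, against 64.4 to 229 CPM in the others. ITGB1, the most widely shared beta chain, had 873 CPM in this library, against 300.4 to 2492 CPM in the others. ITGB4 and ITGA6 form the integrin of the hemidesmosome. ITGB4 had 4143 CPM in this library, against 1.15 to 1477 CPM in the others. ITGA6 had 1079 CPM in this library, against 19.7 to 831 CPM in the others. ITGA5, a chain of the fibronectin receptor, had 208 CPM in this library, against 10.6 to 96.5 CPM in the others. All 3 were highest in the library labelled OE19. Of 18 integrins that passed, 3 were over 2-fold above and 4 below (median -0.20), and ITGAV alone was called lower (0.299% of all genes). ZC3H15, next to ITGAV among expressed genes on chromosome 2, had 75.1 CPM in this library, against 56 to 128 CPM in the others. On the other side of ITGAV, FAM171B had 1.21 CPM in this library, against 0.225 to 159 CPM in the others with a median of 43.4. On the side of ZC3H15, NUP35, of the nuclear pore, was lowest of the 9 with 11.2 CPM in this library, against 16.7 to 32.9 CPM in the others. NCKAP1, of an actin-regulating complex, was also lowest with 223 CPM in this library, against 296 to 613 CPM in the others. DNAJC10, beyond these and called lower, had 21.7 CPM in this library, against 121 to 359.9 CPM in the others. Genes lying among these were not all low. Between ITGAV and DNAJC10, DUSP19 and FSIP2 had 2.82 and 2.64 CPM in this library, against medians of 2.61 and 3.25 in the others. Beyond FAM171B, TFPI had 200 CPM in this library, against a median of 12.6 and up to 635 CPM in the others. SESTD1, beyond DNAJC10, was highest of the 9 with 183 CPM in this library, against at most 96.6 in the others.

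Other lower genes with wide gaps had varied roles. EMC10, a subunit of the complex that inserts proteins into the endoplasmic reticulum membrane, had 0.606 CPM in this library, against 35.7 to 117 CPM in the others. GLUL, glutamine synthetase, had 3.67 CPM in the library labelled OE19, against 87.4 to 593 CPM in the other 8 libraries with a median of 128. FARP1, a regulator of the cytoskeleton, had 1.18 CPM in this library, against 36.1 to 207 CPM in the others. CLIP4 had 0.356 CPM in this library, against 23.8 to 275 CPM in the others. ARSD had 0.107 CPM in this library, against 17.3 to 131 CPM in the others. IGSF3 had 0.178 CPM in this library, against 14.1 to 147 CPM in the others. RASEF had 0.0713 CPM in this library, against 12.3 to 365 CPM in the others. ALCAM, an adhesion molecule of the immunoglobulin family, had 1.75 CPM in this library, against 38.1 to 1086 CPM in the others. FYN, a SRC-family kinase, had 2 counts in this library, against 11 CPM or more elsewhere. INPP4B, a phosphoinositide phosphatase, had 2 counts in this library, against 6.57 CPM or more elsewhere. The count of lower genes rests on the scale and on the thresholds applied to it. With the authors' deposited FPKM values (fragments per kilobase scaled to the file's total) in place of CPM, 1 gene, MAGEF1, met the rule. The minimum of 5 was kept unchanged there, so the 2 thresholds are not alike. In deposited FPKM, ITGAV had 0.00703 in this library, against 3.59 to 13.3 in the others, which keeps a gap of 2 but not the minimum of 5.

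The genes at 0 counts in the library labelled OE19, with at least 5 CPM in every other library, were OGFRL1, SPECC1, FAM171A1, NCK2, LCMT2, CEP41, ALKBH3, POGLUT3 and ADAL. OGFRL1 was 22.5 to 73.3 CPM elsewhere, SPECC1 15.2 to 127 CPM, and FAM171A1 12.3 to 36 CPM. NCK2, an adaptor of receptor kinases, was 9.8 to 87.6 CPM. ALKBH3, which repairs alkylated DNA, was 8.42 to 28.5 CPM. LCMT2 and ADAL lie beside each other on chromosome 15, and ALKBH3 lies close to ACCS, also lower (0.57 CPM in this library, against 7.0 to 34.3 CPM in the others), on chromosome 11. ESO-26 also had 9 genes of this kind, and the remaining libraries had 0 to 6.

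Several epithelial regulators were near 0 CPM, while the keratin and junction lists lay close to the median of the others. Of 24 epithelial identity and splicing regulators, 17 were over 2-fold below and 1 over 2-fold above the median, with a median difference of -3.19. ESRP1, a splicing factor of epithelial transcripts, had 3 counts and 0.107 CPM in the library labelled OE19, against 0.302 to 421 CPM in the other 8 libraries with a median of 140.1. Its partner ESRP2 was 25.1 CPM in this library, against 6.94 to 77.2 CPM in the others. GRHL2, a master factor of epithelial junctions, had 2 counts in this library, against up to 218 CPM in the others. GRHL3, a relative of it, had 27.5 CPM in this library, against 0.173 to 12.5 CPM in the others. No gene of the list met the gap rule, and OE33 or ESO-26 was the lowest of the others for each regulator named here. For ESRP1 the CPM values by library were 181 in OACP4_C, 108 in FLO-1, 313 in SK-GT-4, 0.519 in ESO-26, 0.302 in OE33, 421 in ESO-51, 247 in OAC_5.1_C, 104 in JH_EsoAd1, so this library, ESO-26 and OE33 were low and the remaining 6 were above 100 CPM. RAB25, a GTPase of epithelial recycling, had 0.0356 CPM in this library, against 0 to 146 CPM in the others. CDH1, which encodes E-cadherin, had 77.8 CPM in the library labelled OE19, against 0.173 to 546 CPM in the other 8 libraries with a median of 278.

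Junction genes and keratins had medians near 0. For 24 junction genes the median was 0.03 and the mean -0.20, with 2 over 2-fold above and 6 below. Of all genes 12.9% were over 2-fold above and 13.4% over 2-fold below, which also holds for the keratins and the basal list here. For 18 keratins the median was 0.07 and the mean -0.19, with 4 over 2-fold above and 4 below. Of the 19 keratins listed, 3 had 0 counts in this library, so a difference near 0 can also mean a low level throughout. CLDN2, a claudin of leaky epithelia, had 41.9 CPM in this library, against 0.0377 to 62.3 CPM in the others. CLDN1 had 4.7 CPM in this library, against 0.115 to 162 CPM in the others. MARVELD3, a tight junction protein, had 0.178 CPM in this library, against 0.113 to 27.9 CPM in the others. KRT17, a keratin of basal cells, had 2 counts in this library, against up to 328 CPM in ESO-26. KRT7, a ductal keratin, was at 446 CPM in this library, against 0.867 to 1649 CPM in the others. TRIM29, another basal gene, had 0.285 CPM in this library, against 0.0577 to 173 CPM in the others. The squamous and basal list had a median difference of -0.08, with 1 member over 2-fold above and 4 below of 18.

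Mesenchymal genes did not move together. VIM, the intermediate filament vimentin, had 1679 CPM in the library labelled OE19, against 0.0322 to 616 CPM in the other 8 libraries with a median of 2.19, and OE33 was next. S100A4 had 1439.9 CPM in this library, against 2.49 to 1029.9 CPM in the others, with ESO-26 next. ZEB1, a repressor of epithelial genes, had 55 CPM in this library, against 0.0965 to 85.7 CPM in the others. FN1, which encodes fibronectin, was lowest of the 9 with 1.14 CPM in this library, against 4.22 to 3591 CPM in the others. TGFBI, a matrix protein induced by TGF-beta, had 0.178 CPM in this library, against 0.173 to 433 CPM in the others. CDH2 and SNAI2 had 0 counts in this library. In deposited FPKM the others had 0 to 2.84 for CDH2 (median 0) and 0 to 1.21 for SNAI2 (median 0.613). Of 23 members that passed, 5 were over 2-fold above and 5 below (median -0.05, mean 0.19).

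**Figure D4:**
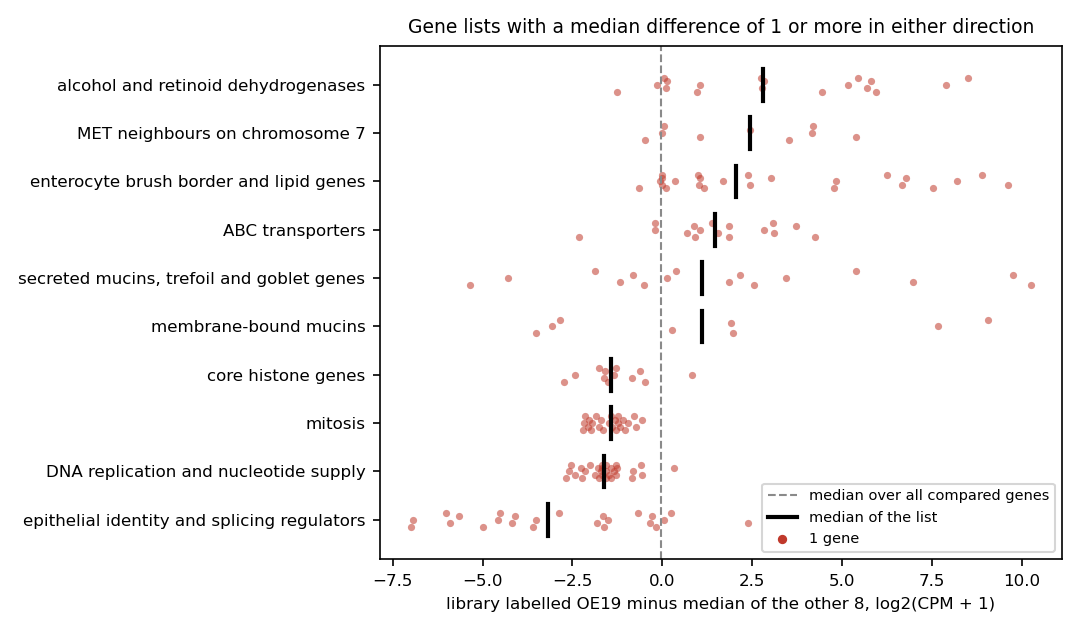
Each point is 1 gene of a list, placed by its value in the library labelled OE19 minus the median of the other 8 on the log2(CPM + 1) scale. Bars are list medians and the dashed line is the median of all compared genes (-0.03). Of 41 lists these 10 have a median of at least 1 in either direction.

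MET was the receptor with the largest difference from the median. It encodes the receptor of hepatocyte growth factor, which drives growth and motility of epithelial cells. MET had 350910 counts, 1.17% of the library, and 12506 CPM in the library labelled OE19, against 57.7 to 6323 CPM in the other 8 libraries with a median of 295 (95% interval in the library labelled OE19, 12465 to 12547 CPM). OACP4_C was next, so the gap to the others was 0.98 and MET was not called. Of 9 genes that passed in the list of MET and its neighbours, 6 were over 2-fold above and 0 below (median 2.45). With no minimum CPM all 13 listed genes counted and the median was 0.05. That list was drawn up with the result for MET known. CAPZA2, an actin capping protein, had 2684 CPM in the library labelled OE19, against 113 to 567 CPM in the other 8 libraries with a median of 145 and was called. TES, a focal adhesion protein, had 2381 CPM in this library, against 16.7 to 602 CPM in the others. ST7 had 131 CPM in this library, against 3.29 to 64 CPM in the others. These 3 genes and MET were highest in this library. CAV2 had 449 CPM in this library, against 6.11 to 478 CPM in the others, level with JH_EsoAd1. CAV1, between CAV2 and MET, had 195 CPM in this library, against 0.511 to 1849.6 CPM in the others, close to the median of 189. Beyond ST7, LSM8 had 20.8 CPM in this library, against 17.4 to 116 CPM in the others. Beyond TES, SMIM30 had 42.4 CPM in this library, against 7.01 to 56 CPM in the others. Within 15 expressed genes on either side the remaining ones were likewise inside the range of the other libraries, apart from BMT2, which was lowest of the 9 with 2.25 CPM in this library, against 6.71 to 44.6 CPM in the others. DNA copy number was not measured.

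**Figure D5:**
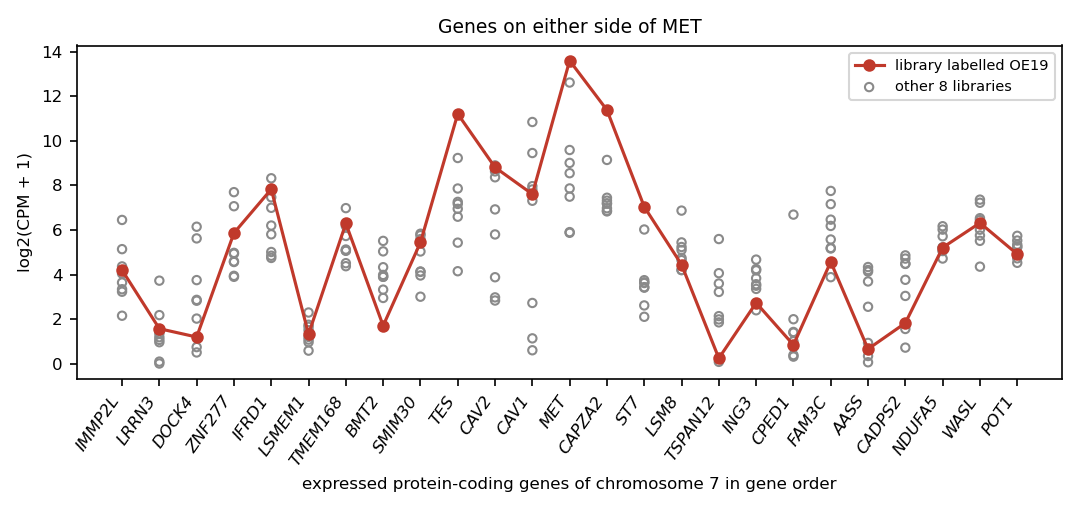
Expressed protein-coding genes on either side of MET, in gene order along chromosome 7, in log2(CPM + 1). Filled joined points are the library labelled OE19, open points the other 8 libraries. TES, MET, CAPZA2 and ST7 lie above every other library, and CAV1 and LSM8 do not.

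Other receptor tyrosine kinases varied on both sides. INSR, the insulin receptor, had 216 CPM in this library, against 0.569 to 88.2 CPM in the others. ERBB3, the partner of HER2, had 726 CPM in this library, against 1.96 to 511 CPM in the others. EPHA2, an ephrin receptor, had 547 CPM in this library, against 13.2 to 330.3 CPM in the others. Each was highest in this library. EPHA1 had 0.535 CPM in this library, against 0.0577 to 63 CPM in the others. FGFR2 had 3 counts in this library, against up to 459.8 CPM in ESO-26. Over 32 receptors, 7 were over 2-fold above and 8 below (median -0.27). Near ERBB2 on chromosome 17, PPP1R1B, which encodes the phosphatase inhibitor DARPP-32, had 456 CPM in this library, against 0.309 to 341 CPM in the others, with ESO-51 next. NR1D1, a clock repressor, had 35.8 CPM in this library, against 1.21 to 9.87 CPM in the others. IKZF3 had 11.2 CPM in this library, against 0 to 6.54 CPM in the others. PGAP3 and MIEN1 adjoin ERBB2 among expressed genes and GRB7 follows MIEN1, and each was inside the range of the others. PGAP3 had 12.3 CPM in this library, against 11.7 to 1359 CPM in the others with a median of 35.5. GRB7 had 67.4 CPM in this library, against 0.981 to 2982 CPM in the others. MIEN1 had 37.2 CPM in this library, against 15.3 to 848 CPM in the others. Of 10 listed neighbours of ERBB2, 2 were over 2-fold above and 1 below (median 0.09).

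Genes that report signalling through RAS and ERK were above the median in part. Of 23, 10 were over 2-fold above and 2 below (median 0.82). EREG, an EGF-family ligand, had 575 CPM in this library, against 0.115 to 593 CPM in the others. PHLDA1 had 572 CPM in this library, against 15.6 to 609 CPM in the others. Both were level with OACP4_C. DUSP6, a phosphatase that turns off ERK, had 161 CPM in this library, against 0.346 to 178 CPM in the others. ETV5, an ETS factor induced by ERK, had 132 CPM in this library, against 0.634 to 57.3 CPM in the others. SPRY2, a feedback inhibitor of receptor kinases, was lowest of the 9 with 0.748 CPM in this library, against 1.04 to 21.8 CPM in the others.

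Most genes of cell division were below the median of the others. Of 30 genes of DNA replication and nucleotide supply, 25 were over 2-fold below the median, against 13.4% of all genes, and 0 were over 2-fold above (12.9% of all genes). Of 25 mitosis genes, 21 were over 2-fold below and 0 above. The medians were -1.62 and -1.43. E2F1, which activates replication genes, had 6.81 CPM in the library labelled OE19, against 29.2 to 57.1 CPM in the other 8 libraries with a median of 48.6. PCNA, the sliding clamp of DNA polymerases, had 34.5 CPM in this library, against 53.8 to 230.0 CPM in the others. CDC45 and GINS1 are parts of the replicative helicase. CDC45 had 6.45 CPM in this library, against 8.51 to 192 CPM in the others. GINS1 had 5.42 CPM in this library, against 11.1 to 84.4 CPM in the others. Among mitosis genes, the entry kinase CDK1 had 37.8 CPM in this library, against 67.9 to 245 CPM in the others. BIRC5, of the chromosomal passenger complex, had 6.24 CPM in this library, against 20.4 to 79.5 CPM in the others. The checkpoint kinase TTK had 17.7 CPM in this library, against 51 to 172 CPM in the others. The kinetochore protein CENPF had 98.2 CPM in this library, against 342 to 726 CPM in the others. The library labelled OE19 was lowest of 9 for each of these. RFC4 was an exception with 51.3 CPM in this library, against 14.9 to 55.9 CPM in the others.

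Core histone genes lay mostly on the same side. Of 12, 8 were over 2-fold below and 0 above (median -1.42). H2BC11 had 20.5 CPM in the library labelled OE19, against 89.5 to 201 CPM in the other 8 libraries with a median of 143. H2AC11, beside it, had 31.4 CPM in this library, against 157 to 235 CPM in the others. Histone genes are near-identical copies, so the split of reads among them is uncertain. Lower genes with a role in division included ZWINT, CDCA5 and KIFC1. ZWINT, of the kinetochore, had 6.91 CPM in this library, against 51.6 to 118 CPM in the others. CDCA5, which holds sister chromatids together, had 7.34 CPM in this library, against 41.1 to 58.2 CPM in the others. KIFC1, a spindle motor, had 11 CPM in this library, against 48.9 to 125 CPM in the others. Inhibitors of the cycle leaned the other way. Of 20 inhibitors and p53 targets, 10 were over 2-fold above and 1 below (median 0.93). CDKN2A and CDKN2B restrain CDK4 and CDK6, and both were highest in this library with OACP4_C next. CDKN2A had 154 CPM in this library, against 0 to 124 CPM in the others. CDKN2B had 79.2 CPM in this library, against 0 to 58.8 CPM in the others. SESN2, a stress-induced gene, had 80.9 CPM in this library, against 3.92 to 144 CPM in the others. FAS, a death receptor, had 22.6 CPM in this library, against 0.225 to 31.3 CPM in the others.

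The Wnt and stem cell list had a median of 0.30, with 6 of 20 over 2-fold above and 0 below. MYC, a growth factor-induced transcription factor, had 466 CPM in the library labelled OE19, against 71.1 to 220.2 CPM in the other 8 libraries with a median of 118. It was the highest of the 9. RNF43, a feedback inhibitor of Wnt receptors, had 84.7 CPM in this library, against 0.0991 to 162 CPM in the others. DKK1, a secreted Wnt inhibitor, had 129 CPM in this library, against 0.0667 to 339.5 CPM in the others. TCF7, a Wnt effector, had 42.9 CPM in this library, against 0.923 to 26.7 CPM in the others. LGR5, the intestinal stem cell receptor, was at 0.428 CPM in this library, against 0 to 10.6 CPM in the others. HOX genes had a median of 0.37 over 28 members, with 8 over 2-fold above and 1 below. HOXA11 and HOXA13, which pattern the posterior body, had the largest differences in the list. HOXA11 had 22.9 CPM in this library, against 0.644 to 7.95 CPM in the others. HOXA13 had 60.4 CPM in this library, against 0.577 to 22.1 CPM in the others. HOXB13 had 19.5 CPM in this library, against 0.892 to 11.6 CPM in the others, and this library was the highest of the 9 for all 3. HOXC12, which the list does not hold, had 11.6 CPM in this library, against 0 to 6.62 CPM in the others, a larger difference from the median than that of HOXA11 or HOXA13.

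Immune-related lists had medians between -0.31 and 0.41. Interferon-stimulated genes had a median of -0.31 and a mean of 0.29, with 6 over 2-fold above and 6 below of 25. IFI27 had 159.7 CPM in this library, against 0.257 to 665 CPM in the others. BST2, which tethers budding virus particles, had 88 CPM in this library, against 0 to 60.5 CPM in the others. DDX58, the RNA sensor RIG-I, had 8.73 CPM in this library, against 3.86 to 237 CPM in the others. Antigen presentation genes had a median of 0.41. B2M, the light chain of MHC class I, was highest of the 9 with 1712 CPM in this library, against 184 to 1185 CPM in the others. HLA-F had 6 counts, or 0.214 CPM in this library, against up to 60.3 CPM in the others. SK-GT-4 was lower with 0.0965 CPM, and each of the rest had at least 5.11 CPM. Of 18 members, 3 were over 2-fold above and 1 below.

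Metabolic and stress lists also had modest medians. Hypoxia and glycolysis genes had a median of 0.68, with 9 of 22 over 2-fold above. NDRG1, a gene induced by hypoxia and differentiation, was called higher with 1365 CPM in the library labelled OE19, against 4.38 to 299 CPM in the other 8 libraries with a median of 119.8. HK2, a hexokinase, had 636 CPM in this library, against 12.3 to 276 CPM in the others. CA9, a carbonic anhydrase induced by hypoxia, had 29.6 CPM in this library, against 0.0577 to 11.6 CPM in the others. For all 3 genes this library was above each of the others. The unfolded protein response had a median of 0.68, with 8 of 19 over 2-fold above and 1 below. CREB3L1, a membrane-bound stress factor, had 47 CPM in this library, against 0.0518 to 98.7 CPM in the others. CHAC1, which degrades glutathione, had 51.2 CPM in this library, against 3.7 to 60.0 CPM in the others. PDIA4, a chaperone, was lowest of the 9 with 118 CPM in this library, against 211 to 625 CPM in the others. NRF2 targets had a median of 0.31, with 5 of 17 over 2-fold above and 1 below. AKR1C1, a ketosteroid reductase with close paralogs that make its level uncertain, had 1875 CPM in this library, against 2.41 to 6288 CPM in the others. FTL, the ferritin light chain, had 6003 CPM in this library, against 566 to 9594 CPM in the others. Cholesterol synthesis had a median of 0.24, with 4 of 20 over 2-fold above and 3 below. STARD4, which carries cholesterol between membranes, was called lower with 0.285 CPM in this library, against 7.49 to 112 CPM in the others. Cytochrome P450 genes had a median of 0.29, with 6 of 22 over 2-fold above and 4 below. CYP4F12 had 52.4 CPM in this library, against 0.0577 to 97 CPM in the others. CYP24A1, which degrades vitamin D, had 0.321 CPM in this library, against 0.0889 to 148 CPM in the others. Conjugating enzymes had a median of 0.20, with 6 of 21 over 2-fold above and 5 below. GSTM3, a glutathione transferase, had 0.214 CPM in this library, against 0 to 50.3 CPM in the others. Bile acid genes had a median of 0.62, with 6 of 14 over 2-fold above and 0 below. NR1H4, which encodes the bile acid receptor FXR, was highest of the 9 with 2.96 CPM in this library, against 0 to 0.0643 CPM in the others. FABP6, which carries bile acids in ileal cells, had 12.8 CPM in this library, against 0 to 3.86 CPM in the others. Cancer-testis antigens had 0 of 12 members over 2-fold in either direction.

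The library labelled OE19 was most like OACP4_C, by a small margin. Over 17129 genes Pearson's r across genes was 0.841 with OACP4_C, 0.829 with JH_EsoAd1 and 0.824 with SK-GT-4. The lowest was 0.760 with ESO-26, and the median over the 8 was 0.812. These correlations are across genes that are not independent and describe the libraries only. Genes shared with 1 other library were counted where both stood at least 2 above the remaining 7 and at 5 CPM or more. There were 15 such genes with SK-GT-4, 12 with FLO-1, 10 with ESO-51 and 5 with OACP4_C, and 1 to 4 with each of the remaining libraries. With SK-GT-4 the widest were REG4, a secreted lectin of intestinal cells (44.3 CPM in this library, 664 in SK-GT-4 and at most 0.149 CPM elsewhere), HSD17B2 and MUC5B. With FLO-1 they were GREM1, a secreted BMP antagonist (74 CPM in this library, 117 in FLO-1 and at most 2.12 elsewhere), DNAJC12 and DMBT1. With ESO-51 they were PPP1R1B, ALDH1A1 and CDX2, and with OACP4_C they were MET, DHRS9 and ST7. Shared lower genes were most numerous with OE33 (19) and SK-GT-4 (13). FRAS1, a basement membrane protein, led with OE33 (0.0356 CPM in this library, 0.0377 in OE33 and at least 18.2 elsewhere), and CALD1, an actin regulator, with SK-GT-4 (0.143 CPM in this library, 0.0965 in SK-GT-4 and at least 14.2 elsewhere).

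Lists of other cell types had medians near 0. The median difference was -0.05 over 5 hepatocyte, -0.17 over 7 neuroendocrine, 0.02 over 7 blood cell, -0.17 over 6 endothelial and -0.11 over 10 fibroblast markers that passed. Single members went further. Of the blood cell markers 2 were over 2-fold above and 0 below, with a mean of 0.73 and a summed level of 18.7 CPM in this library, against 2.91 to 2091 CPM in the others. Over 4-fold above the median lay 1 of the blood cell markers, and it was not CD14. CD14, of monocytes, had 2.96 CPM in this library, against 0.144 to 25.4 CPM in the others. In deposited FPKM, HBA1, which encodes a haemoglobin chain, had 5.11 in this library, against 0 to 1.05 in the others. Of the fibroblast markers 1 was over 2-fold below, COL1A1, a collagen chain, with 1.75 CPM in this library, against 0.577 to 46.5 CPM in the others. SERPINA1, an antiprotease made by hepatocytes, had 3.1 CPM in this library, against 0 to 36.9 CPM in the others. CYP2E1, a hepatic cytochrome P450, had 0.249 CPM in this library, against 0.0496 to 3.82 CPM in the others.

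The genes with the most counts were partly RNA genes. Among the 10 were MET, FTL, the translation factor EEF1A1 and PLEC, which encodes the hemidesmosome linker plectin. PLEC had 5949.8 CPM in the library labelled OE19, against 306 to 2100.3 CPM in the other 8 libraries with a median of 1382, the highest of the 9. The others were AL162581.1, AL355075.4, RN7SL5P, SNORD3A, MT-RNR1 and MT-RNR2, none of which had its highest CPM in this library. AL162581.1 had the same 657985 counts as the identifier of the 7SK RNA in this library's own file. As a share of all counts in that file the identifier took 1.63%, against 0.279% to 1.55% in the files of the others.

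Apart from the alcohol dehydrogenase block, 5 runs of neighbouring genes lay beyond every other library. Along the chromosomes, the genes scanned were protein-coding with a median of at least 1 CPM over the 9 libraries. Runs of at least 3 adjacent scanned genes that were each at least 1 (log2) beyond every other library held 16 genes in all. The ADH6, ADH1A, ADH1B and ADH1C block falls outside this scan, because the medians of these genes over the 9 libraries were under 1 CPM. On chromosome 2 EDAR, SH3RF3, SEPTIN10 and SOWAHC were above. EDAR, a receptor of skin appendage development, had 43.7 CPM in this library, against 0.0577 to 13.2 CPM in the others. SH3RF3 had 51.6 CPM in this library, against 0 to 9.52 CPM in the others. SEPTIN10 had 263 CPM in this library, against 44.9 to 109 CPM in the others. SOWAHC had 206 CPM in this library, against 10.9 to 78.3 CPM in the others. TP53INP2, GGT7 and ACSS2 were above on chromosome 20, where ACSS2, which makes acetyl-CoA from acetate, had 192 CPM in this library, against 24.3 to 86.7 CPM in the others. RPP30, PCGF5 and HECTD2 were below on chromosome 10, where PCGF5, a Polycomb subunit, had 4.6 CPM in this library, against 39.3 to 255 CPM in the others. On chromosome 6 the runs H2BC11, H2AC11 and H2BC12, and H2BC13, H2AC13 and H4C11, were below. With a step of 2 instead of 1 no run remained among the scanned genes. By chromosome, 11 of the 71 higher genes lay on chromosome 19 (0.861% of its genes) and 13 on chromosome 2 (0.952%), against 0.36% of all genes.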

How the data were processed

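RNA-seq libraries of 9 oesophageal adenocarcinoma lines were analysed, 1 column each. The submitters' processing notes name STAR 2.6.1d, FastQC 0.11.7, R 3.6.1 and GRCh37. The counter, annotation, strand setting and handling of the 3 technical replicates are not given in the sources used here. The authors deposited raw read counts per gene name in 1 table, and per-line files with counts and FPKM values per Ensembl identifier, per the file headers. The per-line counts equalled the table for 49032 of the 50150 identifiers (97.77%) that it names. Rows with a blank name (at most 0.00965% of counts) were left out.

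Counts were scaled with TMM factors (edgeR 4.0.16, R 4.3.3) from genes at 1 CPM or more in at least 2 libraries, and compared as log2(CPM + 1). The median of the other 8 was taken on that scale and is printed back-transformed. With 1 library per line nothing was tested and the printed differences are descriptions. Poisson intervals are exact at 95%. Gap calls used 19719 genes at 1 CPM in some library, and differences from the median used 17129 at 1 CPM in at least 2. The calling was checked on simulated counts with known fold changes. Gene order and biotypes came from GENCODE 29, whose build differs from the files', so names and order only were used. Promoter windows came from the RefSeq table of GRCh38.p14.

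The members and lists were chosen with earlier results of these data known. By rule the text names the 12 protein-coding genes with the widest gap on each side, up to 4 members per list, genes in runs, the 10 genes with the most counts, and genes shared with 1 other library. Further genes were named with their values in view. A list member counted if it reached 1 CPM in some library. Alternatives were DESeq2 1.42.0 size factors, library size alone, pseudocounts of 0.5 and 5, no minimum CPM, deposited FPKM as it stands or rescaled to equal sums, and leaving out each other library. A few genes are not reported here.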

Additional observations from a re-analysis of the deposited data

Results flagged for a closer look

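A signal outside the count table was found in the per-line files. The identifier ENSG00000266658, which has no name in the table, took 12.7123% of all counts in the file of the library labelled OE19, against 12.3673% to 48.3196% in the files of the other 8. It was 5132534 counts. Identifiers outside the table together held 25.8% of that file's counts, against 25.8% to 77.3% in the others. CPM values here are relative to the counts in the table alone, and the part of these identifiers in any difference was not tested.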

How the results depend on the processing

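No paired analysis was possible because each line has 1 column. Under DESeq2 size factors, library size alone, a pseudocount of 0.5 and no minimum CPM, the counts of higher genes (60 to 75, against 71), of lower genes (57 to 76, against 59) and of genes over 4-fold above or below the median stayed within 1.5 times. With a pseudocount of 5 there were 44 higher genes and 16 lower ones, and 386 genes over 4-fold above and 271 below. The deposited FPKM values gave 37 higher and 1 lower, and 377 above and 67 below. The same values rescaled to equal sums, an alternative chosen after seeing the data, gave 27 and 2, and 256 and 92. The share of higher genes among the gap calls was 54.6%, and 73.3%, 97.4% and 93.1% under these 3 settings. Among 4-fold calls it was 48.4%, and 58.8%, 84.9% and 73.6%. On deposited FPKM the minimum of 5 and the pseudocount of 1 were kept unchanged, although the unit differs. For ITGAV the lowest other library had 106 CPM but 3.59 FPKM. The thresholds are therefore not alike, and these counts and shares cannot be set directly against those on CPM. The deposited FPKM moved the median of all genes by 0.18 (log2) and the other scalings by at most 0.07 in size. Leaving out each other library gave 79 to 93 higher and 62 to 85 lower genes, and 632 to 736 genes above and 689 to 786 below. Of the 24 genes with the widest gaps, 11 kept a gap of 2 in every setting, among the lower ones ITGAV alone. With the pseudocount of 1, a gene near 0 in this library shows a gap of 2 on FPKM only where the others are high. The lowest other FPKM was 0.765 for OGFRL1, 0.505 for SPECC1, 2.20 for EMC10 and 3.59 for ITGAV. For the lower genes, failing on FPKM was thus largely set by the scale and is no measure of their stability. The 10 lists with a median of at least 1 in size kept their sign in every setting, but 8 of them moved by over 1.5 times in some setting. The lowest medians were 0.05 for MET and its neighbours and 0.15 for secreted mucins, both with no minimum CPM, and 0.09 for membrane-bound mucins and 0.65 for enterocyte genes, both on rescaled FPKM. The mitosis and histone lists stayed within 1.5 times. Among genes with a median of at least 1 CPM, no run of adjacent genes (0 genes, against 16) was left at a step of 2. Over the 2000 genes of largest variance the likeness to OACP4_C was 0.456, against 0.841. SK-GT-4 and JH_EsoAd1 followed with 0.428 and 0.423. The causes were not tested. Depth sets the floor of 0.107 CPM for 0 counts in the library labelled OE19, and with 1 library per line no difference has an error between cultures.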
